A study of Mus musculus with 10 samples.

Results

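The 39 genes described here encode the chain of proteins that carries a signal from the T cell receptor to the nucleus, together with the proteins that restrain it. They were taken as a named list, and each gene was represented by the probe set, annotated to that symbol alone, that had the highest mean over the arrays. Of the 39 genes, 37 had such a probe set, and all 37 were among the 11319 genes that passed a filter on low values, of 18194 genes with a probe set in all. Lck, the kinase that starts the signal, and Nfkb1, an NF-kB subunit, were not matched to a probe set in the annotation used here and are not described further. Of the 37 genes, 24 promote the signal (activators), 11 restrain it (inhibitors), and Sh2d2a and Themis, adaptors with both kinds of role, were kept apart.

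When the receptor binds its ligand, the kinases Lck and Fyn phosphorylate the CD3 and zeta chains, to which the kinase ZAP-70 then binds. ZAP-70 phosphorylates the adaptors LAT and SLP-76, and from these the signal branches to calcium and NFAT, to Ras, and through protein kinase C theta, BCL10 and MALT1 to NF-kB. Phosphatases, ubiquitin ligases and the surface receptors CD5 and CD6 hold the signal down, and regulatory T cells (Treg) need it both to develop and to act.

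RNA from 5 groups was hybridised to 10 Affymetrix Mouse 430 2.0 arrays, 2 per group. All cells were splenic CD4+ T cells, and the strain given for all of them is DEREG_Balb/c. DEREG mice carry GFP under the promoter of Foxp3, the transcription factor that defines Treg, and cells were sorted by that reporter. Tconv mock and Tconv Foxp3 started from GFP- conventional T cells, and Treg mock started from GFP+ cells. Scurfy mock and scurfy Foxp3 started from GFP+ cells of what the sample descriptions abbreviate as D_S, read here as DEREG/Scurfy, in which Foxp3 is mutated. Every group was activated with antibodies to CD3 and CD28 and infected with the retrovirus pGCSamIN, empty (mock) or carrying Foxp3, and cells bearing its NGFR marker were sorted. Every value below is therefore from cells whose receptor had been stimulated, and no unstimulated group was analysed here. The labels do not say whether the 2 arrays of a group are from different animals or cultures, and the p-values then reflect array spread alone, which may be technical. In bulk RNA, fewer cells of a type and less RNA per cell cannot be told apart.

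The array medians lay between 18.8 and 36.5 intensity units. The 4 T cell markers with a probe set were above the median on all 10 arrays. The Foxp3 probe set read 53.9 and 35.9 in Tconv mock and 18.0 and 18.9 in Tconv Foxp3, against 2130 and 3128 in Treg mock. On the scurfy arrays it read 1188 and 1114 with the mock label and 948 and 691 with the Foxp3 label. This probe set separated the starting cells as labelled and was no higher under the Foxp3 label; whether it covers the stretch of Foxp3 in the virus is not stated in the sources used here. The groups are therefore called Foxp3-labelled. The summed intensity of the 6 B cell markers with a probe set, none of them above the array median on all 10 arrays, was 47.6 and 39.3 in Tconv mock, 54.0 and 555 in Treg mock and 75.6 and 332 in scurfy mock. It was 286 and 487 in Tconv Foxp3 and 725 and 1730 in scurfy Foxp3, so within each start both Foxp3-labelled arrays were above both mock arrays, and its part in the results was not tested.

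The upstream sequences of 4 genes are printed so that NFAT, a factor this pathway activates, could be looked for in them. Themis, Ubash3b and Cblb had the smallest p-values of the list in the test among all 5 groups, and Cd5 lies next to Cd6, the one gene called below, for which no window was matched. Each is the 250 bases before an annotated gene start, on the gene's own strand, from RefSeq (GRCm38.p6), at chr9:41158063-41158312 (minus strand) for Ubash3b, chr16:52031299-52031548 (plus) for Cblb, chr19:10738975-10739224 (minus) for Cd5 and chr10:28668110-28668359 (plus) for Themis. Capitals mark matches to the NFAT core TGGAAA on either strand, which reads TTTCCA on the other.
Ubash3b: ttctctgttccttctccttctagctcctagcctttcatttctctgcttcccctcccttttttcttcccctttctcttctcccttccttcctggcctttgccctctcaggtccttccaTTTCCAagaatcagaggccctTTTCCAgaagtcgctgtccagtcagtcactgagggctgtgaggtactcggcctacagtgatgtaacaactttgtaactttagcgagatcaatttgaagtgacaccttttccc
Cblb: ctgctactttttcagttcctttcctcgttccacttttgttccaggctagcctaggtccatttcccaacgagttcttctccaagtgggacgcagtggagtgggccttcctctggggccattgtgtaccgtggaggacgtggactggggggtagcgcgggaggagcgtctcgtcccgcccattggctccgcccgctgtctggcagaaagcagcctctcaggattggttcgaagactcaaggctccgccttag
Cd5: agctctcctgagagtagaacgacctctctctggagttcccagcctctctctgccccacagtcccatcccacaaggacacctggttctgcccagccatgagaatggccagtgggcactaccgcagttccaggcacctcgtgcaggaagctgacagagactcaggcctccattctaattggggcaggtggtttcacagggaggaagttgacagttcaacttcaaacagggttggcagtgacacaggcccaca
Themis: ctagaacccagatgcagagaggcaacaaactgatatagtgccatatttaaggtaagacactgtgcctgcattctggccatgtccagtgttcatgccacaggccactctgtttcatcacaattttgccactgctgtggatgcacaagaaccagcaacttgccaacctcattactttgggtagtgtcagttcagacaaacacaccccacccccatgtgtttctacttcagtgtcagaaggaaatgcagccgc
Ubash3b held 2 matches in this window, and the other 3 windows held none. Ubash3b has a second annotated start, whose window at chr9:41079507-41079756 held 1 match, and the window printed was chosen after the matches were seen. Themis has a second start too, whose window held 0. Such windows were found for 30 of the 39 genes, 42 windows in all because some genes have several starts, and 19.0% of these held TGGAAA, against 18.6% of all 32851 windows. The RUNX core TGTGGT was in 11.9% of the genes' windows against 14.0% of all, the ETS core CCGGAA in 4.76% against 12.0%, the forkhead core TGTTTAC in 4.76% against 3.17%, and the AP-1 core TGANTCA in 2.38% against 6.75%, all searched on both strands. A match is a description of letters and not a site.

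Among the receptor and co-receptor chains, Cd4, Cd3e and Cd3d varied least within groups of all 37 genes. Cd3e, a signalling chain of the receptor complex, read 3551 and 2965 in Tconv mock, 3096 and 3634 in Treg mock, 3693 and 3702 in scurfy mock, 3490 and 4070 in Tconv Foxp3 and 3457 and 3830 in scurfy Foxp3. The highest array was in Tconv Foxp3 and the lowest in Tconv mock. Its SD within groups was 0.138 on the log2(value + 16) scale used for all differences below, against a median of 0.363 over the 37 genes and 0.357 over all genes tested. Cd3d lay between 3140 and 4795 and Cd247, the zeta chain, between 1578 and 2712. Trat1, which encodes a small adaptor that associates with the receptor, was the least steady, with an SD of 1.94: it read 1334 on one scurfy mock array and 10.7 on the other, and 348 and 53.6 in Treg mock. The other 6 arrays lay between 2.90 and 31.8.

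Other activators with wide gaps between the 2 arrays of a group were Rasgrp1, an exchange factor for Ras (2499 and 596 in scurfy mock), Prkcq, protein kinase C theta (1868 and 763 in scurfy mock), and Nfkb2 (78.4 and 775 in scurfy mock). Malt1, the scaffold and protease of the NF-kB arm, read 728 and 140 in scurfy Foxp3. A gap of over 1 on the log2 scale was seen for 7 of 37 genes in scurfy mock (18.9% against 14.0% of all genes), 5 in Treg mock (13.5% against 10.9%), 4 in scurfy Foxp3 (10.8% against 15.8%), 2 in Tconv Foxp3 (5.41% against 4.28%) and 1 in Tconv mock (2.70% against 6.10%).

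**Figure D1:**
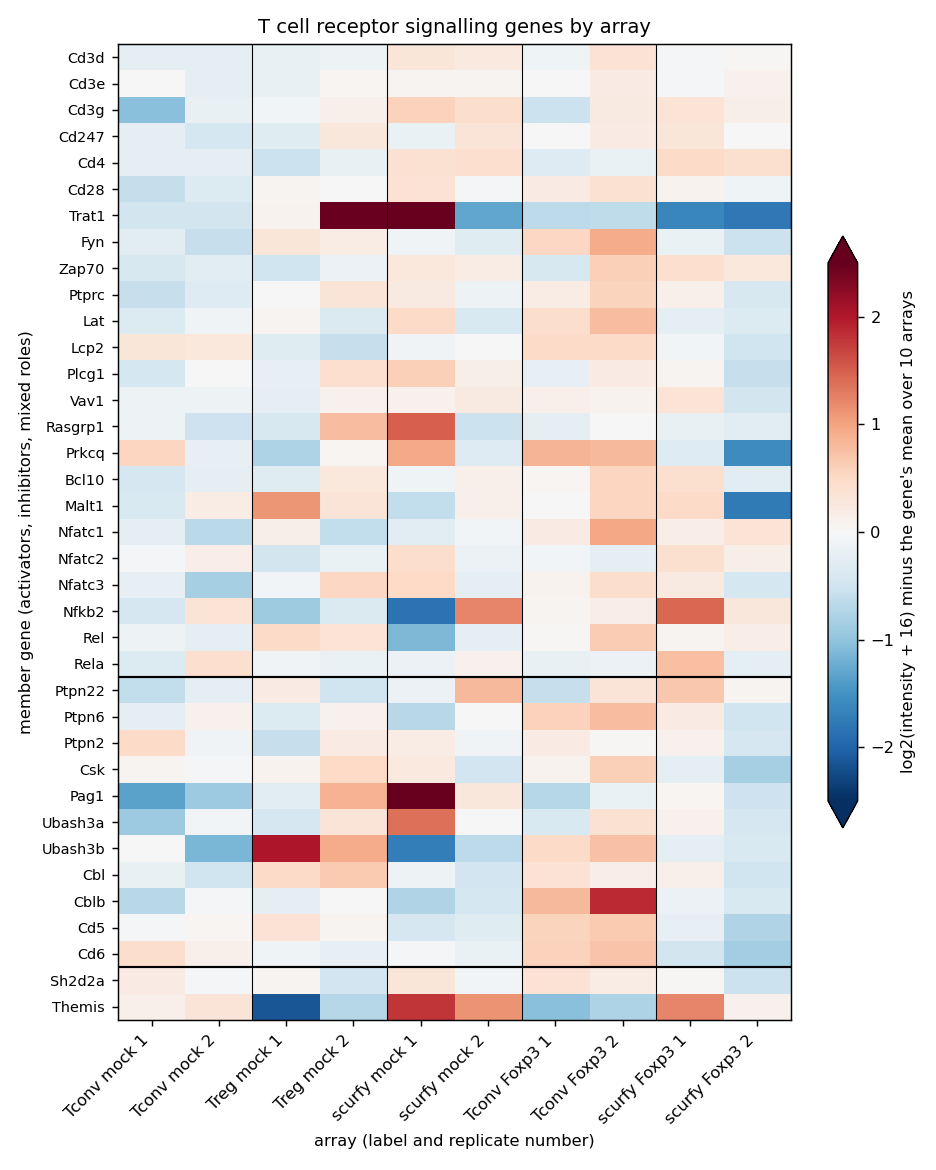
Level of each of the 37 genes on each of the 10 arrays, as the difference in log2(value + 16) from that gene's mean over all arrays, with genes ordered by role. Cd4 stands higher on all 4 scurfy arrays, Cd5 and Cd6 lower, and Trat1 differs most between the 2 arrays of a group.

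A test for any difference among the 5 groups called none of the 37 genes at an adjusted p under 0.05 (limma F test), while 1.91% of all genes were called. At an unadjusted p under 0.05 it took 9 of 37 genes (24.3%), against a background of 17.8%. The smallest adjusted p-values were those of Themis (0.0717), Ubash3b (0.0992), Cblb (0.106), Cd6 (0.129) and Fyn (0.161). Of these 5, Fyn alone is an activator.

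Starting cells were compared first, with scurfy GFP+ arrays against Tconv arrays averaged over mock and Foxp3 labels, which gives 4 arrays on each side. Cd6, a surface receptor that restrains the signal, fell and was the only one of the 37 genes called. Cd5, its neighbour on chromosome 19 with 0 protein-coding genes between them, and Lcp2, which encodes SLP-76, were also lower on all 4 scurfy arrays. Cd4, the co-receptor, was higher on all 4. None of these last 3 passed the threshold.

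Cd6 read 1060 and 858 in Tconv mock and 1180 and 1285 in Tconv Foxp3, against 754 and 694 in scurfy mock and 566 and 422 in scurfy Foxp3. The highest scurfy array was below the lowest Tconv array. The log2 difference was -0.85 ± 0.19 (SE, n = 4 arrays a side; limma, adjusted p = 0.0391), which is 0.555 times the Tconv level on this scale. Treg mock, which is outside this comparison, read 729 and 673, within the range of the scurfy arrays, and scurfy mock differed from it by 0.05 (adjusted p = 0.989).

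The call of Cd6 held in 1 of the 10 fits that each left out 1 array, the one without the first scurfy Foxp3 array. It was lost without any of the others, with adjusted p-values of 0.0507 to 0.149, while the difference over the 10 fits ran from -0.95 to -0.75. It was not called with a pseudocount of 1 (adjusted p = 0.0568) or when only the 4 groups compared were fitted (adjusted p = 0.0511), where Themis was the 1 gene called. Over all genes 4.32% were called in this comparison and 1.15% were called lower, so 1 call among 37 genes is near the background. At an unadjusted p under 0.05 there were 8 of 37 genes (21.6%), against 20.9% of all genes, and the 4 genes whose sides did not overlap (10.8%) stood against 11.9% of all.

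Cd5, a receptor whose surface level is known to follow the strength of receptor signals, read 1711 and 1822 in Tconv mock, 2590 and 2758 in Tconv Foxp3, 1307 and 1423 in scurfy mock, with 1528 and 1041 in scurfy Foxp3. The difference was -0.72 ± 0.19 (SE; 95% interval -1.16 to -0.28; adjusted p = 0.072). Cd4 read 2416 and 2422 in Tconv mock and 2292 and 2570 in Tconv Foxp3, against 3719 and 3868 in scurfy mock and 4023 and 3810 in scurfy Foxp3. The sides were well apart, with a difference of 0.67 ± 0.17 (SE; adjusted p = 0.0676), and its second probe set gave 0.72. All cells were sorted as CD4+, and Treg mock read 1985 and 2513, with the Tconv arrays. Lcp2 read 1730 and 1678 in Tconv mock, 1967 and 1962 in Tconv Foxp3, 1309 and 1394 in scurfy mock, with 1339 and 982 in scurfy Foxp3. Its difference was -0.55 ± 0.18 (SE; adjusted p = 0.135).

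The sides of 4 further genes overlapped. Themis, an adaptor that tunes receptor signals in thymocytes, gave 1.40 ± 0.36 (SE; adjusted p = 0.066), Cblb, a ubiquitin ligase that raises the threshold for activation, -0.92 ± 0.27 (adjusted p = 0.0963), and Cd3g 0.76 ± 0.26 (adjusted p = 0.134). Pag1, which anchors the inhibitory kinase Csk at the membrane, gave 1.42 ± 0.50 (adjusted p = 0.151); it read 672 on 1 scurfy mock array, and all other arrays lay between 24.9 and 174. The 95% interval lay within 1 log2 unit of 0 for 20 of the 37 genes, Cd3e among them (0.07, interval -0.33 to 0.47), as it did for 62.1% of all genes. These averages take in the Foxp3-labelled arrays. Between the mock arrays alone, the differences were smaller for Cblb (-0.24), Cd6 (-0.39), Cd5 (-0.37) and Lcp2 (-0.33). They were similar for Cd4 (0.65) and Themis (1.23), and larger for Cd3g (1.12) and Pag1 (2.63).

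Activators and inhibitors had different medians in the comparison of starting cells averaged over both labels. Of 24 activators 16 were higher on the scurfy side (66.7%), with a median difference of 0.16. Of 11 inhibitors 3 were higher (27.3%), with a median of -0.50. Of all genes 57.8% were higher, with a median of 0.08. Of the 27 inhibitors in a separate list of other pathway genes, 19 were higher on the scurfy side, with a median of 0.16. The 27 activators of that list gave the same count and median, so the 2 roles did not differ there. After quantile normalization the medians of the 24 activators, the 11 inhibitors and all genes were 0.08, -0.57 and -0.02, and after scaling to a common 75th percentile 0.02, -0.64 and -0.04. Of the 54 genes of the separate list that were tested, 1 was called, against 4.32% of all genes. It was Vav3, an exchange factor for Rac, at -1.60 ± 0.29 (SE, limma, adjusted p = 0.0206). Vav3 read 217 and 103 in Tconv mock, 430 and 496 in Tconv Foxp3, 94.0 and 47.0 in scurfy mock, with 67.7 and 111 in scurfy Foxp3. The sides overlapped. Its family member Vav1 lay between 327 and 578 on all 10 arrays, and Vav2 between 125 and 835.

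**Figure D2:**
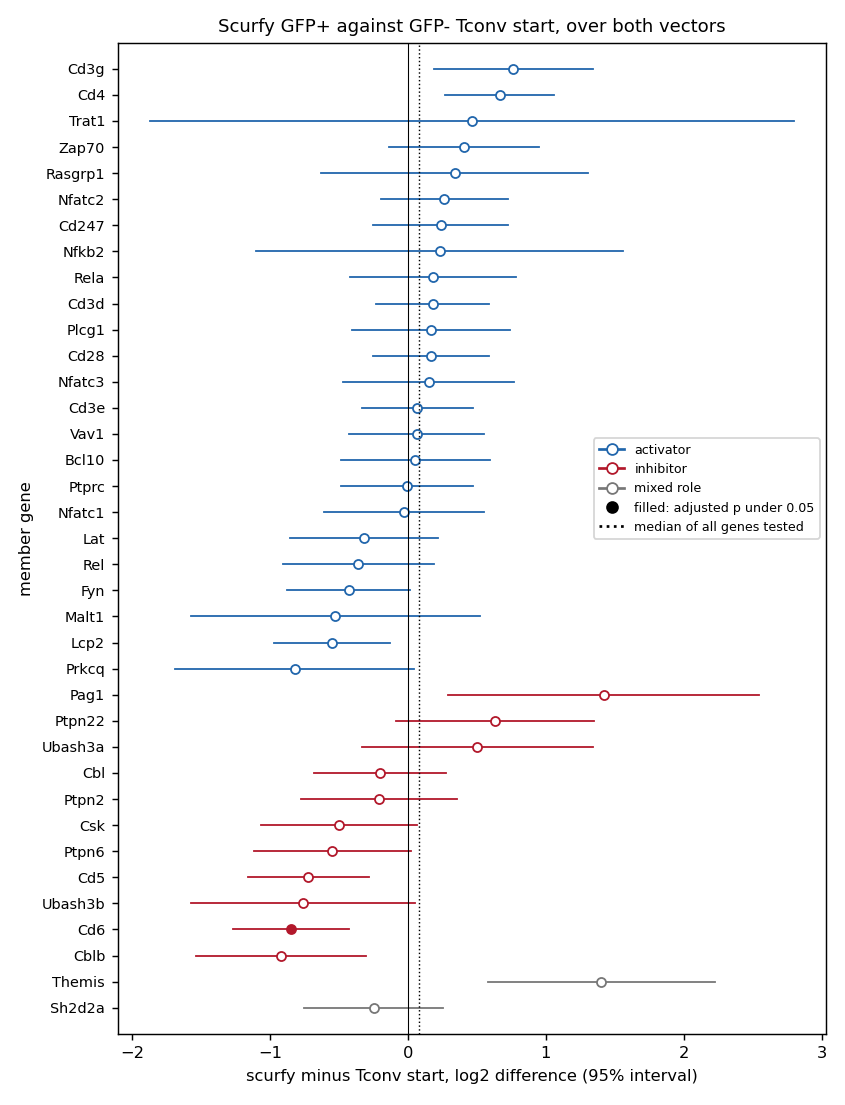
Difference between scurfy and Tconv starting cells in log2(value + 16), averaged over mock and Foxp3 labels, for each of the 37 genes with its 95% interval (4 arrays a side). Cd6 at -0.85 is the only gene called, Cd5 and Lcp2 lie below 0 with Cblb, and Cd4 and Themis lie above it.

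Treg mock was compared with Tconv mock to ask how the 2 kinds of cell differ when both carry the empty virus. None of the 37 genes was called at an adjusted p under 0.05, against 1.09% of all genes (limma). At an unadjusted p under 0.05 there were 5 (13.5%), against 15.4%, and they were Ubash3b, Themis, Cbl, Lcp2 and Fyn. Ubash3b, a phosphatase also known as Sts-1 that removes phosphate from ZAP-70, read 1172 and 540 in Treg mock against 276 and 118 in Tconv mock. The sides did not overlap, as was so for 18 of the 37 genes (48.6%) and for 51.6% of all genes. The difference for Ubash3b was 2.04 ± 0.51 (SE, n = 2 a side, adjusted p = 0.106), with its other probe sets at 1.38 and 2.04. The related Ubash3a, at 94.6 and 168 against 62.7 and 125, overlapped between the groups.

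Themis read 124 and 361 in Treg mock against 655 and 757 in Tconv mock, a difference of -1.65 ± 0.51 (SE; adjusted p = 0.17). Cbl, a ubiquitin ligase that removes receptor chains, read 865 and 977 against 539 and 430 (0.91 ± 0.30, adjusted p = 0.19). Fyn was at 701 and 648 against 468 and 372 (0.67 ± 0.28, adjusted p = 0.297), and Lcp2 at 1134 and 931 against 1730 and 1678 (-0.72 ± 0.26, adjusted p = 0.23). Ptprc, the CD45 phosphatase that opens Lck and Fyn, read 4276 and 5316 against 2866 and 3419 (0.60 ± 0.30, adjusted p = 0.382). The median of the 37 genes was 0.24, beside 0.19 over all genes. After quantile normalization these were 0.09 and -0.05, and scaled to a common 75th percentile -0.10 and -0.11, so the sign of the list's median was not the same under all 3.

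Scurfy mock was set against both other mock groups. Against Tconv mock none of the 37 genes was called, with 0.574% of all genes called. An unadjusted p under 0.05 was seen for 5 of the 37 (13.5%), against 13.8% of all. These were Pag1 (2.63 ± 0.71, adjusted p = 0.179), Cd3g (1.12 ± 0.36, adjusted p = 0.244), Cd4 (0.65 ± 0.25, adjusted p = 0.302), Cd28 (0.63 ± 0.26, adjusted p = 0.334) and Themis (1.23 ± 0.51, adjusted p = 0.334). Cd28, the costimulatory receptor, read 4832 and 3618 in scurfy mock against 2480 and 2925. Cd3g, another signalling chain of the complex, read 4633 and 4238 against 1505 and 2728. Ubash3a followed, with a difference of 1.17 ± 0.52 (adjusted p = 0.368), from 366 and 130 against 62.7 and 125.

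Against Treg mock, the widest differences of the list were in Themis and Ubash3b, in opposite directions. Themis read 2102 and 1336 in scurfy mock, so that the groups were far apart, at 2.88 ± 0.51 (SE; 95% interval 1.72 to 4.05; adjusted p = 0.0772). Its other well-measured probe sets gave 3.06 and 3.14, and a weak one 0.96. Ubash3b read 72.2 and 170 in scurfy mock, a difference of -2.66 ± 0.51 (SE; 95% interval -3.81 to -1.52; adjusted p = 0.102). None of the 37 genes passed the threshold, which 0.256% of all genes did. An unadjusted p under 0.05 was seen for 5 of the 37 (13.5%), against 7.92% of all.

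The others with an unadjusted p under 0.05 were Rel, the c-Rel subunit of NF-kB (-1.08 ± 0.34, adjusted p = 0.356), Cd4 (0.76 ± 0.25, adjusted p = 0.382) and Cbl (-0.86 ± 0.30, adjusted p = 0.447). Rel read 168 and 324 in scurfy mock against 539 and 488 in Treg mock. Cbl read 566 and 438 in scurfy mock, at the level of Tconv mock. Cd5 came next, at -0.58 ± 0.27 (adjusted p = 0.675), from 1307 and 1423 against 2263 and 1851. Both of these comparisons use the scurfy mock arrays. The first shares Tconv mock with the comparison of Treg mock and Tconv mock, and the second shares Treg mock with it. The same Treg mock readings, such as those of Themis and Cbl, thus enter the second and that earlier comparison. A gene that recurs in both is not separate evidence, and the values are set side by side only.

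**Figure D3:**
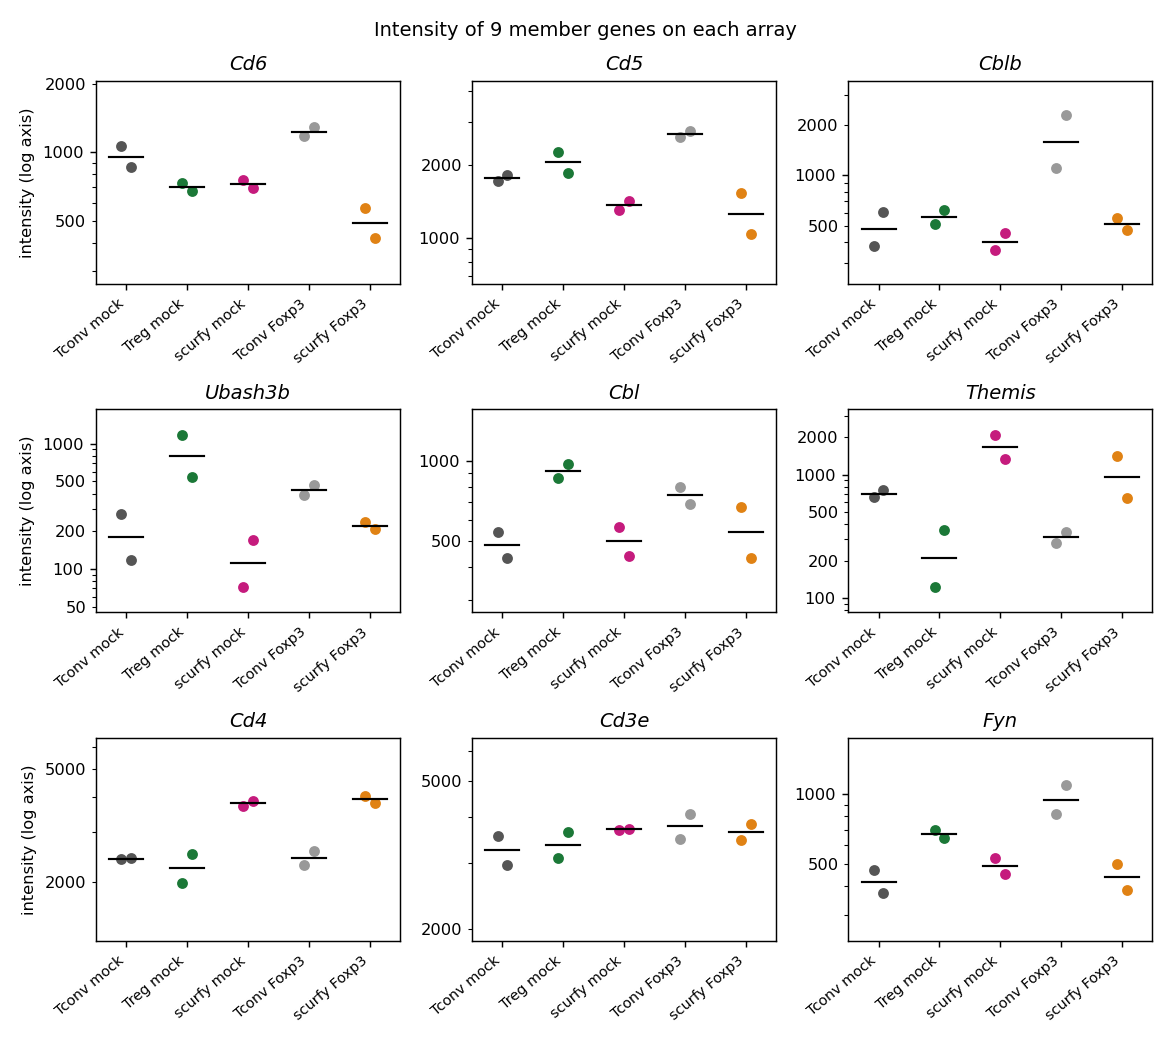
Intensity of selected genes on each array on a log axis, by group, with 2 points per group. Themis is at 124 and 361 in Treg mock and at 2102 and 1336 in scurfy mock, while Ubash3b is at 1172 and 540 in Treg mock and at 72.2 and 170 in scurfy mock.

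Foxp3-labelled arrays were compared with mock arrays of the same starting cells. In Tconv, none of the 37 genes was called, with 0.0883% of all genes called, and 7 had an unadjusted p under 0.05 (18.9%), against 13.9% of all. Cblb read 1100 and 2287 in Tconv Foxp3 against 377 and 605 in Tconv mock. The groups did not overlap, as was so for 24 of the 37 genes (64.9%) and for 59.2% of all genes. The difference for Cblb was 1.70 ± 0.39 (SE, n = 2 a side, adjusted p = 0.166), with 1.31 and 1.55 from its other probe sets. Fyn read 816 and 1089 against 468 and 372 (1.14 ± 0.28, adjusted p = 0.175), and its second probe set gave 1.49.

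The other 5 were Cd28 (0.75 ± 0.26, adjusted p = 0.29), Nfatc1, which encodes an NFAT factor (1.03 ± 0.36, adjusted p = 0.292), Ptprc (0.82 ± 0.30, adjusted p = 0.302), Lat (0.83 ± 0.34, adjusted p = 0.335) and Ubash3b (1.17 ± 0.51, adjusted p = 0.351). The difference of Ubash3b was 1.73 without the first Tconv mock array and 0.60 without the second. Lat read 2252 and 2824 in Tconv Foxp3 against 1290 and 1554, and Nfatc1 read 1359 and 2306 against 1007 and 733. Of the 37 genes 32 had a positive difference (86.5%), with a median of 0.43, beside 72.4% of all genes and a median of 0.26. After quantile normalization 24 were positive (64.9%), with a median of 0.16, beside 50.6% of all genes and a median of 0.01. The B cell marker sum was higher in both Tconv Foxp3 arrays than in both Tconv mock arrays.

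In scurfy cells none was called between Foxp3-labelled and mock arrays, with 0.0353% of all genes called, and 3 had an unadjusted p under 0.05 (8.11%), against 4.25% of all. Pag1 read 90.7 and 56.9 against 672 and 110, Prkcq 757 and 310 against 1868 and 763, and Rel 402 and 434 against 168 and 324. The differences were -1.74 ± 0.71, -1.27 ± 0.54 and 0.79 ± 0.34, each with an adjusted p of 0.999. Trat1, at 5.15 and 2.90 against 1334 and 10.7, gave -3.25 ± 1.46 (adjusted p = 0.999), and its 2 scurfy mock arrays differed more than any other pair of this list. All of these readings but the 1334 were below the median of their array, so this fitted value is not a measured fold. Cd6 gave -0.55 ± 0.26 and Ubash3b 0.90 ± 0.51, with the same adjusted p. Of the 37 genes 14 were positive (37.8%), with a median of -0.19, beside 47.7% of all genes and a median of -0.02.

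Averaged over both starting cells, the Foxp3 label called none of the 37 genes, with 0.0353% of all genes called, and 6 had an unadjusted p under 0.05 (16.2%), against 9.75% of all. They were Cblb (1.02 ± 0.27, adjusted p = 0.34), Ubash3b (1.03 ± 0.36, adjusted p = 0.407), Nfatc1 (0.73 ± 0.26, adjusted p = 0.413), Rel (0.65 ± 0.24, adjusted p = 0.455), Themis (-0.96 ± 0.36, adjusted p = 0.457) and Fyn (0.50 ± 0.20, adjusted p = 0.462). The sides of Nfatc1 and Rel did not overlap (5.41% of the 37 genes, against 3.34% of all genes). Rel read 393 and 602 in Tconv Foxp3 against 351 and 329 in Tconv mock. Nfatc1 read 1324 and 1503 in scurfy Foxp3 against 961 and 1124 in scurfy mock, a difference of 0.43. Its other probe sets, above the median on all 10 arrays, gave 0.06, -0.12, 0.01 and 0.10 there. The rise of Nfatc1 in scurfy cells thus rests on the probe set used. Averaged over both starting cells the others gave 0.55, 0.36, 0.46 and 0.87.

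The difference between the label's effect in scurfy cells and in Tconv was tested as an interaction, and called 0 of all genes (0%) and 0 of the 37. At an unadjusted p under 0.05 there were 8 of the 37 (21.6%), against 8.05% of all genes. These were Fyn (-1.29 ± 0.39, adjusted p = 0.528), Prkcq (-1.94), Cd28 (-0.93), Cblb (-1.36), Cd6 (-0.91), Lat (-1.17), Pag1 (-2.42) and Ptprc (-1.01), the last 7 with an adjusted p of 0.616. Cblb, for example, read 559 and 471 in scurfy Foxp3 against 360 and 450 in scurfy mock, and Fyn 499 and 385 against 528 and 452. Of the 37 genes 20 were higher under the label in Tconv and lower in scurfy cells (54.1%), as were 37.3% of all genes. Of the rest 12 were higher in both, 3 lower in both and 2 lower in Tconv and higher in scurfy cells. Of all 11319 genes, the same 3 counts were 3979, 1708 and 1415. These counts were taken without further normalization. The median difference between the label effects was -0.60 for the 37 genes and -0.28 for all genes. After quantile normalization these medians were -0.24 and 0.01.

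**Figure D4:**
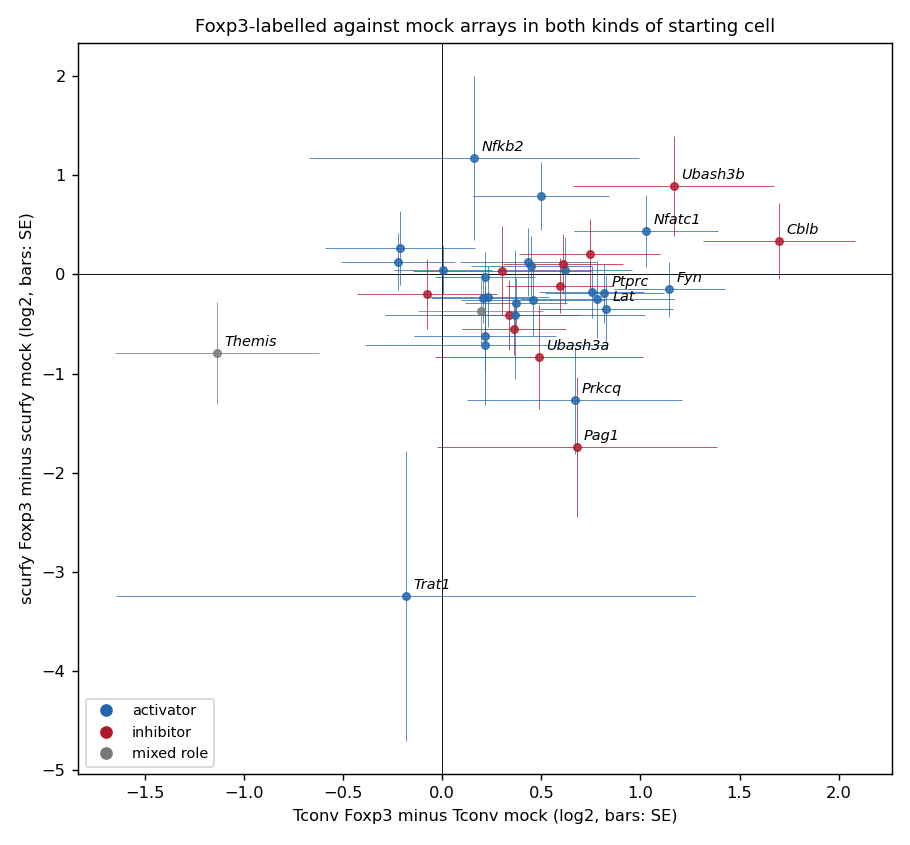
Effect of the Foxp3 label in Tconv (x axis) and in scurfy cells (y axis) as log2 differences from mock arrays, 1 point per gene for the 37 genes. Cblb and Fyn lie far to the right near the 0 line of the y axis, and Trat1 lies lowest; 20 genes are higher in Tconv and lower in scurfy cells.

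The remaining genes stayed outside the lists above in every comparison. Among kinases and messengers, Zap70 lay between 670 and 1457, Plcg1, the phospholipase that starts the calcium branch, between 1167 and 2639, and Bcl10, the partner of Malt1, between 1193 and 2330. A second Zap70 probe set, above the median on all 10 arrays, differed from the one used. It gave 1.35 for scurfy mock against Treg mock, where the one used gave 0.55. For scurfy Foxp3 against scurfy mock the 2 gave -0.64 and 0.13. Among transcription factors, Nfatc2 lay between 306 and 581, Nfatc3 between 441 and 1141 and Rela between 172 and 381. Among inhibitors, the phosphatases Ptpn22, Ptpn6 and Ptpn2 lay between 532 and 1454, 328 and 932, and 1275 and 2685, and Csk, which phosphorylates Lck at its inhibitory site, between 295 and 822. Sh2d2a, an adaptor that binds Lck, lay between 565 and 1070. Of the 25 genes with several probe sets above the filter, 21 had all of them on 1 side of 0 in the comparison of starting cells, and Cd247, Nfatc1, Nfatc2 and Ptpn2 did not. Of the 54 other pathway genes tested, 0 were called in the comparisons other than that of starting cells.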

How the data were processed

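The authors deposited 1 linear intensity per probe set and array; per the submitters' processing notes the arrays were processed with Affymetrix Expression Console, and how probe sets were summarised and scaled is not given in the sources used here. Per the labels' protocols, total RNA was amplified to biotin-labelled cDNA (NuGEN FL-Ovation). Intensities were converted to log2(value + 16) with no further normalization, and a gene had to exceed an array's median on 2 or more arrays. Differences were fitted over all 10 arrays with limma 3.58.1 in R 4.3.3 (lmFit, eBayes; 5 residual and 4.09 prior degrees of freedom), two-sided, with Benjamini-Hochberg adjustment across the 11319 genes tested. The number of arrays limits the precision. Fold changes on this scale understate those of dim genes.

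Groups follow the titles, and a description of the second scurfy Foxp3 array carries a suffix of unstated meaning. The members and lists were chosen with earlier results of these data known. Full statistics are given for called members and, in each comparison, for up to 6 with the smallest p whose groups do not overlap; others are given by values. Beyond that rule, members with an unadjusted p under 0.05 also have full statistics where their groups overlap, and these were chosen after their values were seen. Marker lists for other cell types were summed per array: CD8 T cell, myeloid, dendritic, NK, mast, basophil and red blood cell markers summed to at most 447. Replicate numbers were not used as pairs in the main fit, since the correlation of replicate differences lay between -0.17 and 0.18 over 10 pairs of groups. With 2 arrays per group, this cannot exclude that samples were paired. Alternatives were 2 other scalings, 2 pseudocounts, 2 filters, the mean of probe sets, trend and robust eBayes, a replicate block, the compared groups alone, and leaving out arrays. The script was tested on simulated data. Sequences are from RefSeq, GRCm38.p6.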

Additional observations from a re-analysis of the deposited data

How the results depend on the processing

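No gene of the list was called in Tconv Foxp3 against Tconv mock, or in the difference of the label effects, under any of the 21 alternatives to each. In the comparison of scurfy with Tconv starting cells, the count of called genes was 4 with trend and robust eBayes, with a pseudocount of 64, after 75th percentile scaling and after quantile normalization, and 2 with the 75th percentile filter. Cd5, Cd6 and Themis were in each of those sets of 4, with Cd4, or Cblb for the 75th percentile scaling. The count was 0 with a pseudocount of 1, with the replicate block (Cd6 adjusted p = 0.0601) and without the 2 least correlated arrays, scurfy Foxp3 2 and scurfy mock 1, an alternative chosen after seeing the data. It was 0 to 1 without each array in turn, and the 1 gene was Cd6 without scurfy Foxp3 1, Themis without either Treg array and Pag1 without scurfy mock 2. Themis was called in 7 of the 21 alternatives. Cd6 kept its direction in 21 of 21 alternatives, from -0.99 to -0.75, with an adjusted p between 0.0167 and 0.149, and was called in 8.

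In the test among all 5 groups, 1 gene (Themis) was called after quantile normalization and after 75th percentile scaling, and 4 (Cblb, Cd4, Themis, Ubash3b) with trend and robust eBayes. In scurfy mock against Treg mock the same settings called 1 (Themis), 1 (Themis) and 2 (Themis, Ubash3b), and in Treg against Tconv mock the 75th percentile scaling called 1 (Themis). Without scurfy mock 2, Pag1 and Trat1 were called in scurfy mock against Tconv mock and among the 5 groups, and Trat1 in both scurfy Foxp3 against mock and the averaged label effect; without Treg 2, Themis was called among the 5 groups. Over the arrays left out in turn, the counts were 0 to 2 in the first pair of these comparisons and 0 to 1 in the second. A lone array was then assumed to vary like the other groups. The causes were not tested. Trat1 lay below the array median on scurfy mock 2 and both scurfy Foxp3 arrays, where signal over background limits its values.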
